A study of Homo sapiens with 26 samples.

Results

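Chromosome 7 carries 422 protein-coding genes whose FPKM averaged 2 or more over the 10 libraries of the DLD1 colorectal cancer line, out of 910 protein-coding and 2917 chromosome 7 rows in a table of 58735 genes. FPKM counts sequenced fragments relative to gene length and to the size of the library. The genes were chosen by position, type and that level, and the 4 large tetraploid DLD1 clones were split by the measured level of the chromosome: large clones 2 and 4, in which it was lower, were set against large clones 1 and 3. Because the measured values selected those clones, their difference on chromosome 7 is described without a test. Just inside the FPKM limit lay STX1A at 2.02, GET4 at 2.02 and SH2B2 at 2.04, and just outside it AHCYL2 at 1.86, BMT2 at 1.84 and MLXIPL at 1.81.

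The study asked how expression differs between tetraploid (4N) cancer clones of small and large cell and nuclear size. DLD1 cells, an established near-diploid line, were held for 20 hr in 1.5 µg/mL dihydrocytochalasin B, which stops actin filaments from growing and so prevents the final separation of daughter cells. After washing and 48 hr without drug, single cells were diluted into wells and grown into clones. DLD1 was represented by the parental culture (1 library), 2 diploid (2N) clones, 3 small 4N clones and 4 large 4N clones, none with an engineered allele named in the labels. HCT116, also colorectal, and CAL51, from breast, had 75 µM blebbistatin, a myosin II inhibitor, in place of dihydrocytochalasin B. HCT116 gave 1 parental, 2 2N, 3 small and 3 large libraries, and CAL51 gave 1 parental, 2 2N, 1 small and 3 large. In every line the drug block is recorded for the 4N clones only, and the parental and 2N libraries had none. Drug exposure and ploidy therefore cannot be told apart where 4N clones are set against 2N libraries. Each library but the parental culture is a clone grown from 1 cell, so whatever that founder cell carried is shared by its whole library and cannot be told apart from an effect of size class in a single clone.

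Human chromosome 7 carries the receptor genes EGFR and MET, the HOXA cluster of body-pattern transcription factors, and the region deleted in Williams syndrome. Gains of chromosome 7 are among the common chromosome changes of colorectal tumours. When a cell has more or fewer copies of a chromosome, the RNA of most genes on it tends to move in the same direction, while the rest of the genome can keep its balance. Copy number was not measured in the files analysed here, and only RNA levels are described.

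The 10 DLD1 libraries held 23.5 to 35.99 M reads assigned to genes, with a median of 29.4 M. For a gene 1 kb long, each read added 0.0268 to 0.0400 FPKM. That is the step of the scale and measures neither counting error nor the spread between clones. Large clones 2 and 4 were the shallowest, at 23.5 M and 24.6 M reads, and the part of depth in the results was not tested. The epithelial markers EPCAM, CDH1, KRT8, KRT18, KRT19 and CDX2 were high in all 10 libraries, with lowest values from 38.5 FPKM for CDX2 to 640.1 for KRT8. CDX1, the remaining epithelial marker, did not exceed 0.061 FPKM. The 10 mesenchymal, leukocyte and endothelial markers did not exceed 0.129 FPKM in any DLD1 library.

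Promoter sequences are shown for 4 genes of contrasting behaviour: NUP205 and MACC1, which stood much lower in large clones 2 and 4, and HSPB1 and AHR, which did not follow the chromosome. Each is the 250 bases before the transcription start in RefSeq, build GRCh38.p14, read 5′ to 3′ on the gene's own strand. Capitals mark matches on either strand to the heat shock element core GAANNTTC, to the box CCAAT, to the TATA box in its form TATAAA and to the GC box in its form GGGCGG.
NUP205: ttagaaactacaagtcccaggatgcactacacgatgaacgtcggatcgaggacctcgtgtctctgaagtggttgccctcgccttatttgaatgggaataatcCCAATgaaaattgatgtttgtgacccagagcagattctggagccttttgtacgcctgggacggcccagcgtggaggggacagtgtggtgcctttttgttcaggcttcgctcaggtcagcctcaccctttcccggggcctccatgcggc
MACC1: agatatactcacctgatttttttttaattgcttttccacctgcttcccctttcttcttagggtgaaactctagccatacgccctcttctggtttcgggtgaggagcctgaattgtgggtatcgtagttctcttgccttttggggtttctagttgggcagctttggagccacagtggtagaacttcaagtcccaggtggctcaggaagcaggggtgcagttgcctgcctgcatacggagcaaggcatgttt
HSPB1: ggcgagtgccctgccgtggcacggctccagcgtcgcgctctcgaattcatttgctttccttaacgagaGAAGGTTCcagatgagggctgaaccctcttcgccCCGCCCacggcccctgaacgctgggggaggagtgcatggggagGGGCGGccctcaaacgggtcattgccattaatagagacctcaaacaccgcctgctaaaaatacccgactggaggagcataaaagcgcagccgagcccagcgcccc
AHR: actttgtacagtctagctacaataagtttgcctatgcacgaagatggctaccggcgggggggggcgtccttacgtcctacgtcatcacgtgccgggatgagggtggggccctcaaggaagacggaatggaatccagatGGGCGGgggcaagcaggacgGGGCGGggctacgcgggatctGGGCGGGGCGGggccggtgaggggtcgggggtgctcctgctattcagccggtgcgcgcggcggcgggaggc
The windows lie at chr7:135557667-135557916 on the plus strand for NUP205, chr7:20217385-20217634 on the minus strand for MACC1, chr7:76302423-76302672 on the plus strand for HSPB1 and chr7:17298402-17298651 on the plus strand for AHR.

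NUP205 held 1 CCAAT, MACC1 none of the 4 motifs, HSPB1 1 GAANNTTC and 2 GC boxes, and AHR 4 GC boxes, of which the last 2 overlap by 1 base. RefSeq windows were matched for 353 of the 422 genes, 9 of them through an older symbol, giving 509 windows. GAANNTTC was present in 4.91% of these and in 5.78% of all 35116 promoter windows of the same length. CCAAT was present in 35.6% against 32.0%, TATAAA in 6.29% against 10.7%, and GGGCGG in 65.8% against 42.6%. The set was limited to protein-coding genes expressed in DLD1 and the full table was not, so these shares compare unlike sets of genes.

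Across the chromosome, RNA levels in large clones 2 and 4 were about 0.8 of those in the 2N libraries, whereas large clones 1 and 3 and all small clones were close to the 2N level. Each gene's difference was log2(FPKM + 1) minus the mean of the parental library and both 2N clones, taken relative to the library's median over 8903 protein-coding genes of the same FPKM limit. The median over the 422 genes was -0.29 in large clone 2 and -0.28 in large clone 4. It was -0.01 in large clone 1, -0.03 in large clone 3, and 0.02, 0.01 and -0.003 in small clones 1 to 3. The parental library stood at -0.005 and the 2N clones at -0.01 and 0.02. As plain FPKM ratios to the 2N mean, the medians were 0.793 and 0.799 in large clones 2 and 4 and 0.991 and 0.977 in large clones 1 and 3.

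**Figure D1:**
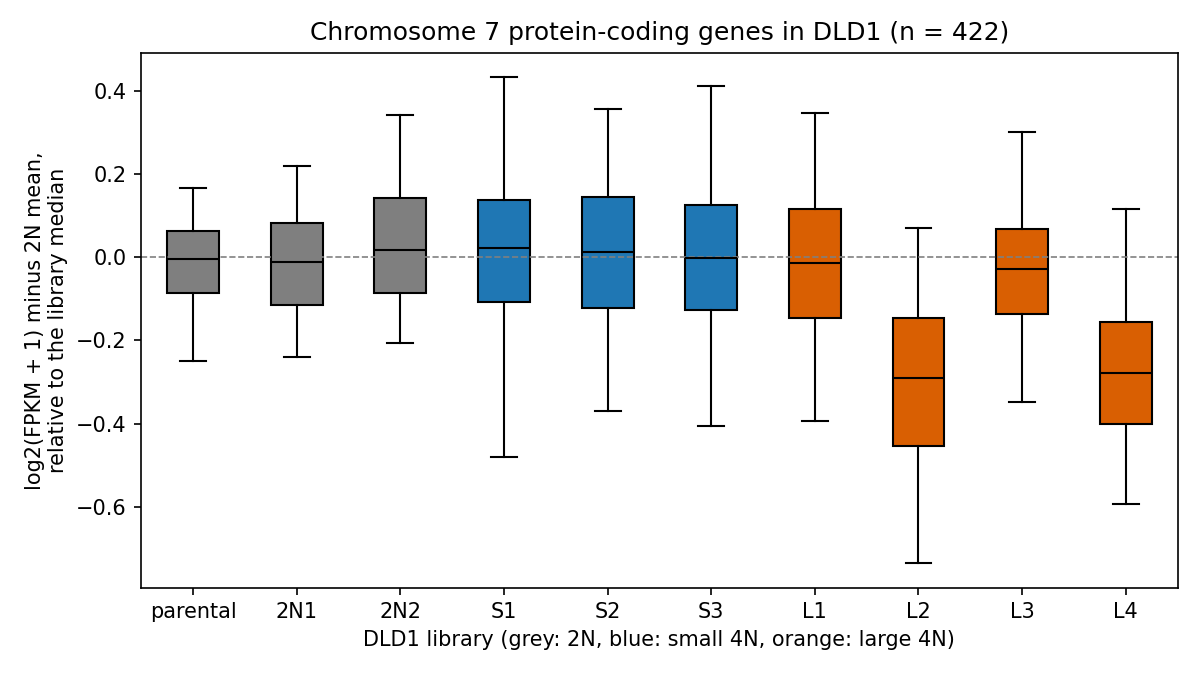
Difference from the 2N mean of each of the 422 chromosome 7 genes in each DLD1 library (log2 scale, horizontal axis: library). Boxes span the quartiles, lines the median and whiskers the 5th to 95th percentiles; the boxes of L2 and L4 (large clones 2 and 4) lie wholly below 0 and the other boxes span it.

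The lower level was spread over nearly the whole set. In large clone 2, 389 of 422 genes (92.2%) lay below 0, and in large clone 4, 379 (89.8%), against 223 and 243 in large clones 1 and 3. A difference of -0.2 or lower was present for 283 genes (67.1%) in large clone 2, where the background over all 8903 genes was 21.7%. The same limit took in 290 genes (68.7%) in large clone 4, against a background of 13.3%. These shares repeat what selected the clones and are no test. The spread between genes was similar on and off the chromosome: the interquartile range was 0.31 for the set and 0.29 for other chromosomes in large clone 2, and 0.25 and 0.22 in large clone 4.

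The set also took a smaller share of all reads. It held 3.18% of reads in large clone 2 and 3.29% in large clone 4. The share was 3.89% in large clone 1, 4.06% in large clone 3, 4.25%, 4.16% and 4.13% in small clones 1 to 3, and 4.02%, 4.05% and 4.04% in the parental library and 2N clones 1 and 2. Large clones 2 and 4 stood below all 8 other libraries. ACTB alone is a sizeable part of this share, and without it large clones 2 and 4 had 2.78% and 2.84%, against 3.35% to 3.56% in the others.

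Among the 23 chromosomes, 7 was the single one with a median of -0.2 or lower in both large clone 2 and large clone 4. Large clone 2 also had chromosome 10 at -0.31, and large clone 4 had chromosome 15 at 0.22. Large clone 1 had chromosome 3 at -0.27, and in large clone 3 no chromosome reached 0.2 in size. Small clone 1 had chromosome 5 at -0.29, and in small clones 2 and 3 no chromosome reached 0.2 in size. Short of that limit, small clone 3 had chromosome 14 at -0.18 and chromosome 3 at -0.15, and small clone 1 had chromosome 8 at 0.16.

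**Figure D2:**
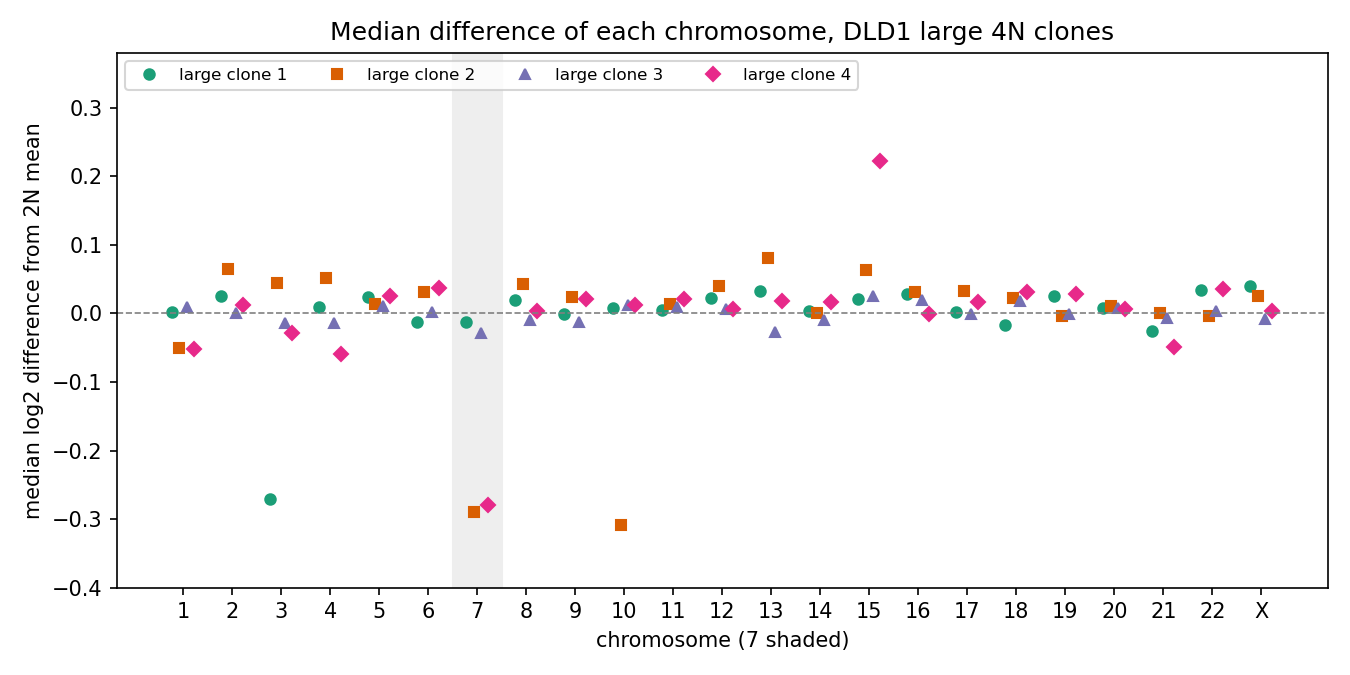
Median log2 difference from the 2N mean for the genes of each chromosome (horizontal axis) in the 4 large DLD1 clones, 1 symbol per clone, chromosome 7 shaded. Large clones 2 and 4 lie at -0.29 and -0.28 on chromosome 7, and the remaining points beyond 0.2 in size are chromosome 10 in clone 2, chromosome 15 in clone 4 and chromosome 3 in clone 1.

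Both arms carried the lower level. The 151 genes of the short arm (split at 60 Mb) had a median of -0.30 in large clone 2 and -0.31 in large clone 4. The 271 genes of the long arm had -0.29 and -0.26. In 16 windows of 10 Mb, each with 8 to 59 genes, every window median was below 0 in both clones, from -0.40 to -0.10 in large clone 2 and from -0.42 to -0.22 in large clone 4. The window least low in large clone 2 holds 12 genes, MET, CAV1 and CAV2 among them. In large clone 1 the window medians lay between -0.11 and 0.04. In large clone 3 they lay between -0.21 and 0.03, the lowest being the 11 genes of the second window. Large clones 2 and 4 both lay below large clones 1 and 3 in 14 of the 16 windows. In the second window large clone 3, at -0.21, lay below large clone 2, at -0.18, and in the window of MET large clone 1, at -0.11, lay below large clone 2, at -0.10.

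**Figure D3:**
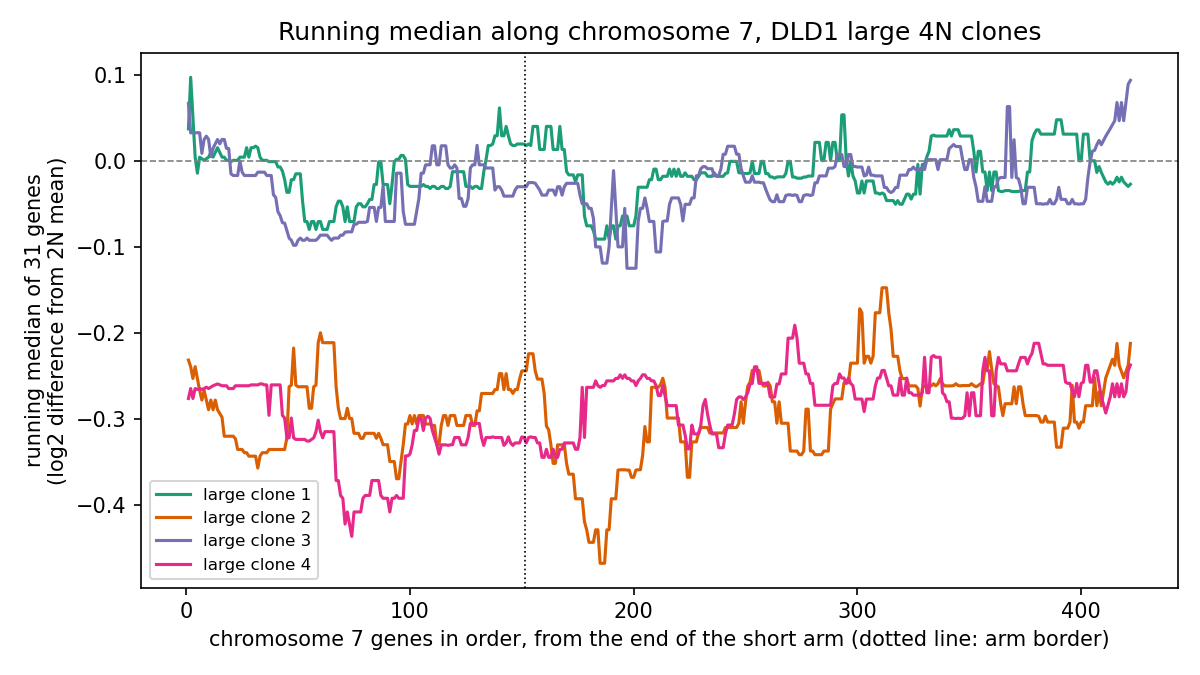
Running median over 31 neighbouring genes of the log2 difference from the 2N mean, along the 422 genes in chromosome order (horizontal axis, dotted line at the arm border), for the 4 large DLD1 clones. The lines of large clones 2 and 4 lie below those of large clones 1 and 3 at all 422 points, although neighbouring points share genes.

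The ratio was similar for weakly and strongly expressed genes. The 141 genes of lowest mean (2.02 to 5.24 FPKM) had a median ratio to the 2N mean of 0.812 in large clone 2 and 0.820 in large clone 4. The 141 genes of the middle range had 0.791 and 0.821. The 140 genes of highest mean had 0.773 and 0.763. On the log2(FPKM + 1) scale, which understates low genes, the medians ran from -0.23 and -0.20 to -0.36 and -0.38. Chromosome 7 genes outside the set were less low on that scale: 57 genes of other biotypes stood at -0.13 and -0.11, and 96 protein-coding genes of 0.5 to 2 FPKM at -0.09 and -0.08. The 17 zinc finger genes with ZNF symbols in the set, which are thinly expressed, stood at -0.11 and -0.17.

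Set directly against each other, large clones 2 and 4 minus large clones 1 and 3 gave a median of -0.28 per gene, with quartiles of -0.38 and -0.15. The difference ran from -1.15 for TMEM139 to 0.77 for NPTX2. It was below 0 for 391 of 422 genes (92.7%), against 47.9% of 8481 genes on other chromosomes, whose median was 0.01. The choice of the clones fixed in advance that pairs of them would have negative medians, so pairs without a common library are no replication. Clone 2 minus clone 1 gave a median of -0.28 and clone 4 minus clone 3 gave -0.26. Both were negative for 327 genes (77.5%), against 25.6% elsewhere. Across the 422 genes the Pearson correlation of these 2 differences was -0.001. With the pairs crossed (clone 2 minus 3, clone 4 minus 1) that correlation was -0.31, both differences were negative for 313 genes (74.2%), against 23.5% elsewhere, and the genes are no independent replicates in either case.

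For 216 of the 422 genes (51.2%), large clones 2 and 4 were both below all 8 other DLD1 libraries, against a background of 4.93% over the 8903 genes. That background is 439 genes, and the 216 of the set are among them. For 0 of 422 were large clones 2 and 4 both above all others, against 2.26%. Large clones 1 and 3 were both lowest for 1 gene (0.237%), against 2.48%.

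ACTB, the most abundant transcript of the set, was among those 216. ACTB (ENSG00000075624, chromosome 7, 5527147 to 5563784, minus strand), the beta-actin of the cytoskeleton, was at 1557, 1641 and 1739 FPKM in the parental and 2N libraries, 1855, 1636 and 1565 in small clones, 1503 and 1627 in large clones 1 and 3, and 1075 and 1202 in large clones 2 and 4. Large clones 2 and 4 thus lay below every other library, at 0.727 of large clones 1 and 3. CHCHD2, a mitochondrial regulator, was at 336, 403 and 291 FPKM in 2N libraries, 334, 354 and 361 in small clones, 337 and 342 in large clones 1 and 3, and 258 in both of the others. PPIA, the prolyl isomerase cyclophilin A, stood at 241 and 217 FPKM in large clones 2 and 4 and between 272 and 354 in the 8 other libraries. PPIA, ACTB and CCT6A have near-identical copies elsewhere in the genome, so their counts are uncertain to the extent that reads were shared.

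Of the 10 highest genes, 8 followed this order. MDH2, a citric acid cycle enzyme, was at 85.3 and 89.2 FPKM in large clones 2 and 4 and at 95.8 to 122 elsewhere. GNB2, a G protein subunit, had a ratio of 0.798 between large clones 2 and 4 and large clones 1 and 3. HNRNPA2B1, an RNA-binding protein, was the first of 2 exceptions, with 129 and 124 FPKM in large clones 2 and 4, 133 and 145 in large clones 1 and 3, and as little as 124 in small clone 1. Its 5′ end overlaps CBX3 on the other strand, and strand use in the counting is not given in the sources used here. HSPB1 was the other.

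**Figure D4:**
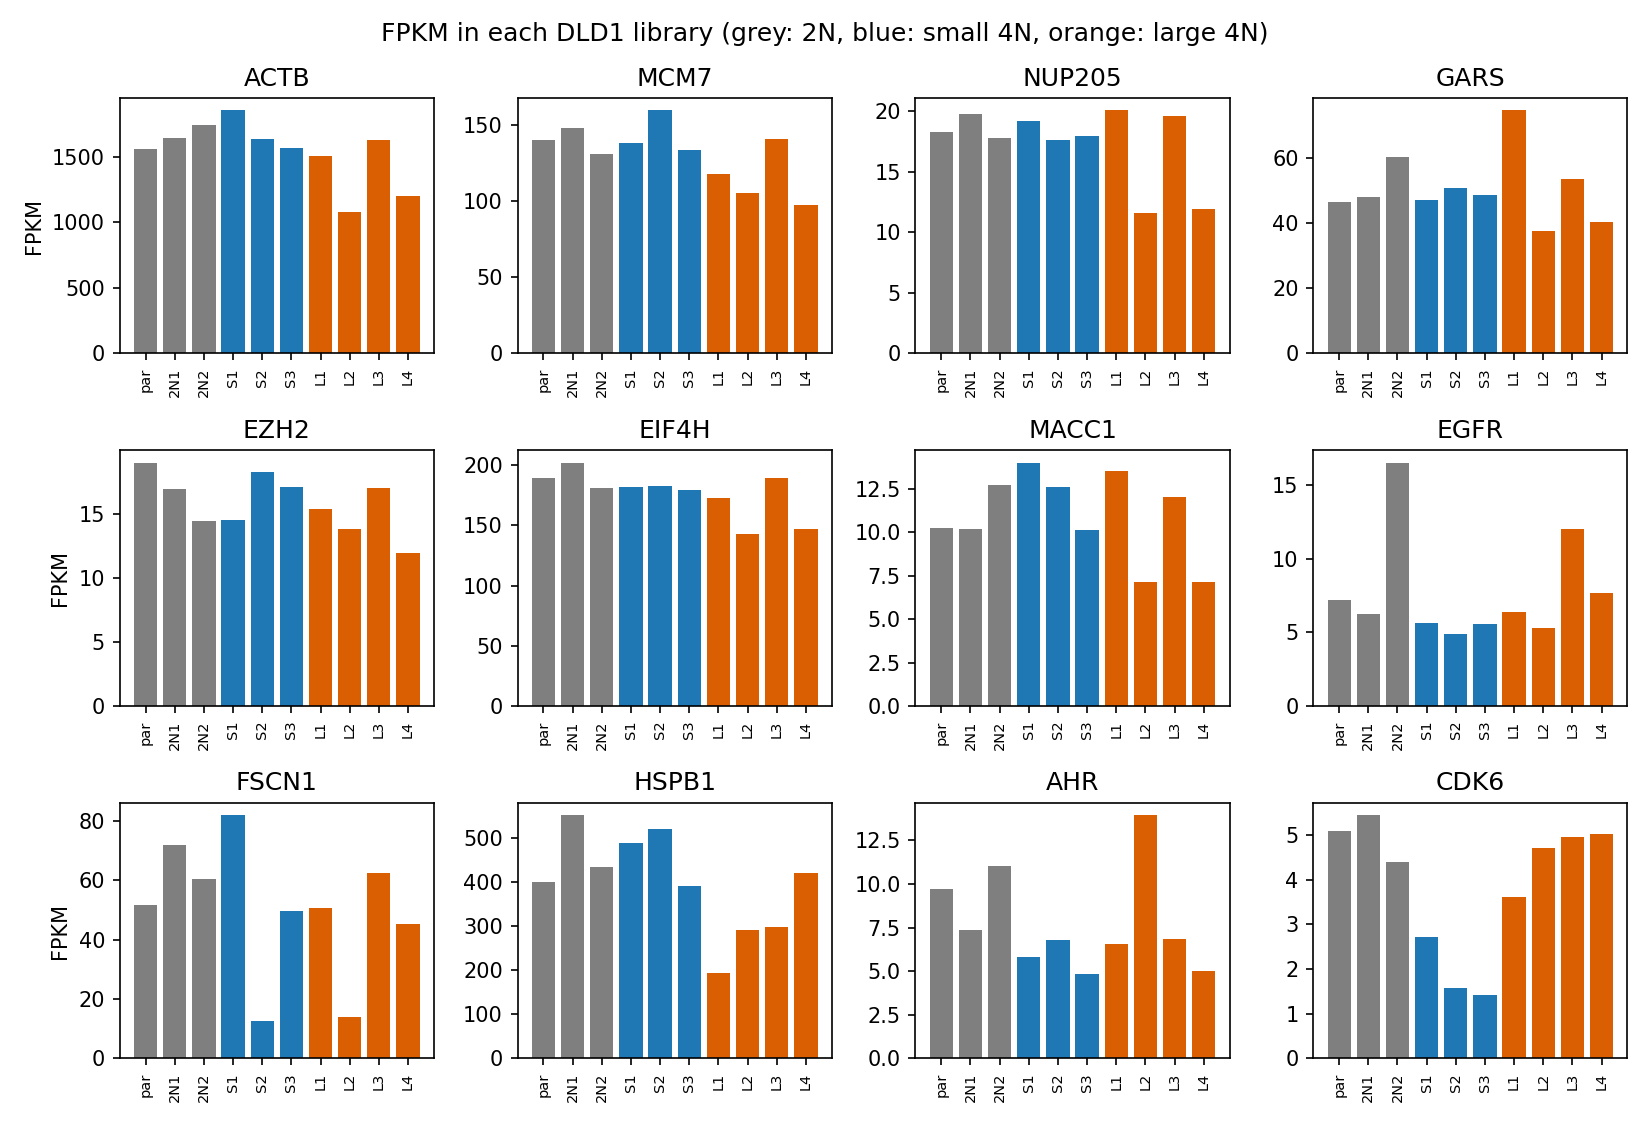
FPKM of 12 chromosome 7 genes in each DLD1 library, 1 bar per library, each panel with its own axis from 0 (par: parental; S: small; L: large). In ACTB, MCM7, NUP205, GARS, EZH2, EIF4H and MACC1 the bars of L2 and L4 are the lowest pair, and in EGFR, FSCN1, HSPB1, AHR and CDK6 they are not.

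The genes were also read in lists named for their main role. Some members are known for another role, and each list is given again without those, which were picked after the values were seen. Of the 195 listed genes, 23 stand in more than 1 list. Over the whole set, 92.7% of genes were below 0 in large clones 2 and 4 minus large clones 1 and 3. Both clones were below all 8 other libraries for 51.2% of the set. The backgrounds were 47.9% of genes on other chromosomes and 4.93% of all 8903 genes, the set included. List counts near the shares of the whole set describe the chromosome and are no result about the list.

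In the list for cell division and DNA replication, 19 of 20 listed genes stood lower in large clones 2 and 4 than in large clones 1 and 3, with a median of -0.27, close to the -0.28 of the whole set, and 15 had both clones below all others. Without CDK5, CDK13 and NUDT1, 16 of 17 were below 0, with a median of -0.27. MCM7 (ENSG00000166508, chromosome 7, 100092728 to 100101940), a subunit of the helicase that opens DNA for copying, was at 139.6, 148 and 131 FPKM in 2N libraries, 138, 159 and 133 in small clones, 118 and 140.2 in large clones 1 and 3, and 105 and 97.4 in large clones 2 and 4. ANLN, the anillin scaffold of the cleavage furrow, was at 22.1 and 25.2 FPKM in large clones 2 and 4, 36.9 and 39.7 in large clones 1 and 3, and 26.9 to 31.9 in the others. It was therefore highest in large clones 1 and 3 and lowest in large clones 2 and 4. POLD2, a DNA polymerase delta subunit, had a ratio of 0.815. CDK6, a kinase that drives entry into S phase, went the other way, at 4.72 and 5.02 FPKM against 3.61 and 4.95. Its lowest values, 2.71, 1.58 and 1.43 FPKM, were those of small clones 1 to 3.

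In the chromatin list, all 14 genes were below 0 with a median of -0.28, and 8 had both clones below all others. It also holds LSM5, which acts on RNA, SUMF2, a protein of the endoplasmic reticulum, and the transcription factors SP4 and CUX1. Without these 4, all 10 were below 0, with a median of -0.28, and 6 had both clones lowest. EZH2, the methyltransferase of Polycomb complex PRC2, was at 19.0, 16.9 and 14.4 FPKM in 2N libraries, 14.6, 18.3 and 17.1 in small clones, 15.4 and 17.0 in large clones 1 and 3, and 13.9 and 11.99 in large clones 2 and 4. The groups did not overlap, but large clone 2 lay within 1 FPKM of 2N clone 2 and small clone 1. CBX3, a heterochromatin protein, had a ratio of 0.788 and BAZ1B, a remodeller in the Williams region, 0.831. KMT2C, a histone methyltransferase, was at 3.02 and 3.38 FPKM against 2.99 and 4.08, within the range of the other libraries.

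The nucleus differs in size between the classes of clone, and the list for the nuclear envelope and pores held 9 genes of the set. All 9 were below 0, with a median of -0.32, and 6 had both clones below all others. Without STRIP2, which is not known for a role there, the 8 others had a median of -0.34. NUP205 (ENSG00000155561, chromosome 7, 135557919 to 135648757), a large protein of the inner pore ring whose promoter is printed above, was at 18.3, 19.8 and 17.8 FPKM in 2N libraries, 19.2, 17.7 and 18.0 in small clones, 20.1 and 19.6 in large clones 1 and 3, and 11.6 and 11.9 in large clones 2 and 4. Its ratio of 0.594 is a larger difference than the typical 0.793, and its 8 other libraries lay within 17.7 to 20.1. TNPO3, an import receptor for splicing factors, had a ratio of 0.722, and POM121C, a membrane anchor of the pore with close copies on the same chromosome, 0.757. SUN1, which joins the nuclear lamina to the cytoskeleton, was at 9.95 and 9.66 FPKM in large clones 2 and 4, 9.73 and 11.5 in large clones 1 and 3, 8.64, 11.5 and 9.89 in small clones and 10.4, 10.3 and 11.4 in 2N libraries, with no separation.

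In the translation list 10 of 14 genes, and in the list for folding, ubiquitin and the proteasome 19 of 20, were below 0, with medians of -0.24 and -0.33. The translation list also holds YKT6, of membrane fusion, and MIOS, of mTOR regulation, and without them 8 of 12 were below 0, with a median of -0.16. Without ATP6V0E2, of the proton pump, and SEC61G, of the protein channel, 17 of 18 in the second list were below 0, with a median of -0.33. EIF3B, a subunit of initiation factor eIF3, was at 51.9, 60.9 and 48.0 FPKM in 2N libraries, 54.5, 54.8 and 52.5 in small clones, 53.0 and 54.7 in large clones 1 and 3, and 35.3 and 38.04 in large clones 2 and 4. EIF4H, a helper of the mRNA helicase eIF4A, was at 143 and 147 FPKM in large clones 2 and 4 and at 173 to 202 in the rest. GARS, the glycyl-tRNA synthetase, was at 37.5 and 40.4 FPKM in large clones 2 and 4, and at 74.5 and 53.3 in large clones 1 and 3. The 74.5 FPKM of large clone 1 stood above every other library, none of which exceeded 60.2, so the low ratio of 0.609 came from both sides. SBDS, which matures the large ribosomal subunit and is not in the list, had 32.4 and 33.9 FPKM, with small clone 2 close by at 34.2. MRPS33, of the mitochondrial ribosome, was higher, at 8.34 and 7.56 FPKM against 5.16 and 8.03, and within the 4.77 to 10.4 of the other libraries.

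HSPB1 (ENSG00000106211, chromosome 7, 76302544 to 76304295), a small heat shock protein that holds unfolded proteins and whose promoter carries the GAANNTTC match, was the most abundant gene that did not follow. It was at 402, 553 and 435 FPKM in 2N libraries, 489, 522 and 391 in small clones, 194 and 299 in large clones 1 and 3, and 291 and 422 in large clones 2 and 4. Large clone 1 was the lowest and large clone 4 lay among the small and 2N values. Its difference between the pairs was 0.56, the second highest of the set after NPTX2, where large clone 1 had 0 reads and large clone 4 had 9.84 FPKM.

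In the RNA processing list 22 of 22 genes were below 0, with a median of -0.23, and 13 had both clones below all others. It also holds SNX8 and EXOC4, of membrane traffic, SSBP1, of mitochondrial DNA, RSBN1L, and the RNA polymerase subunits TWISTNB and POLR2J. Without these 6, all 16 were below 0, with a median of -0.23, and 8 had both clones lowest. Mitochondrial genes were below 0 in 21 of 22, with a median of -0.25, and 14 had both clones lowest. In the list of metabolic enzymes 14 of 15 were below 0, with a median of -0.30, and without CPVL and ALKBH4 12 of 13, with a median of -0.20. POR, which feeds electrons to cytochrome P450 enzymes, was at 18.4 and 19.7 FPKM in large clones 2 and 4 and at 23.9 to 33.9 elsewhere. UPP1, which splits uridine for reuse, was at 6.30, 6.65 and 8.39 FPKM in 2N libraries, 9.22, 7.31 and 5.495 in small clones, 7.11 and 6.498 in large clones 1 and 3, and 2.29 and 3.23 in large clones 2 and 4. At a ratio of 0.406 UPP1 had the lowest value among named genes whose groups did not overlap.

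Transport and membrane traffic genes were below 0 in 18 of 19 cases, with a median of -0.24. Of the 17 genes from the Williams region at 7q11.23, 17 were below 0, with a median of -0.28, and 9 had both clones lowest. CLDN4, a tight junction claudin of that region, was at 30.6 and 49.6 FPKM in large clones 2 and 4 and at 56.5 to 84.2 elsewhere.

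The actin and adhesion list showed the lowest median outside the HOXA cluster, at -0.34, with 19 of 22 below 0 and 11 with both clones lowest. CLIP2, TSPAN13, CAV1 and CAV2, picked after the values were seen, were less low than that median, at -0.11, -0.28, -0.18 and 0.06. Without them 16 of 18 were below 0, with a median of -0.43. RAC1, a GTPase that drives membrane ruffling, was at 56.7 and 55.6 FPKM in large clones 2 and 4 and at 69.1 to 86.6 in the 8 others. FSCN1, the actin bundler fascin, was at 51.6, 72.0 and 60.4 FPKM in 2N libraries, 82.0, 12.8 and 49.8 in small clones, 50.7 and 62.4 in large clones 1 and 3, and 14.0 and 45.5 in large clones 2 and 4. Its low values were thus those of large clone 2 and small clone 2, and the pairs of large clones were not separated from the small ones. CAV1, the coat protein of caveolae, was at 6.51 and 4.09 FPKM against 6.76 and 5.45, within the range of the other libraries.

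HOXA genes had a median of -0.41, with 9 of 10 below 0 and 8 with both clones lowest. The list holds 9 HOXA genes, all below 0 with a median of -0.42, and the neighbouring EVX1. HOXA6 was at 11.21, 12.9 and 13.8 FPKM in 2N libraries, 13.8, 16.5 and 17.9 in small clones, 14.6 and 13.3 in large clones 1 and 3, and 7.51 and 7.68 in large clones 2 and 4. HOXA5 was at 15.5 and 14.0 FPKM in large clones 2 and 4 and at 21.4 to 33.9 elsewhere. Both are transcription factors that set position along the body axis. EVX1, a homeobox factor, had a difference of 0.01 and is described with the tests.

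**Figure D5:**
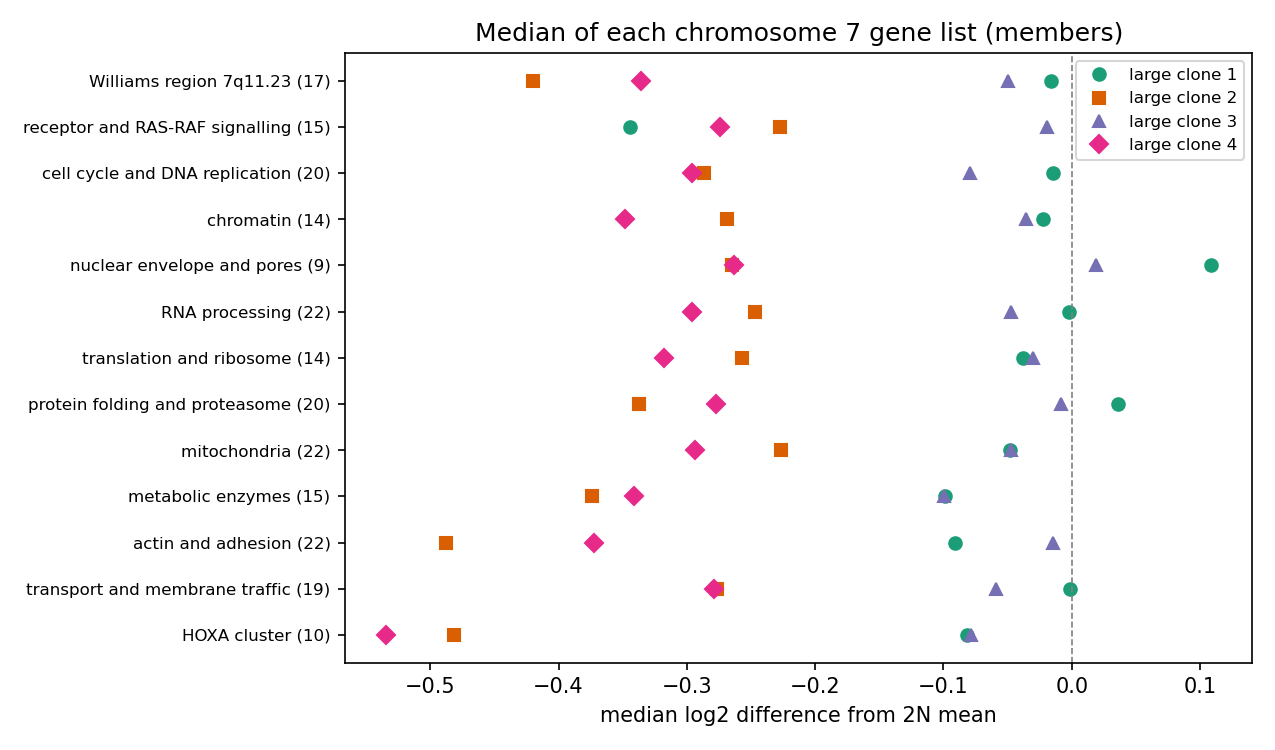
Median log2 difference from the 2N mean (horizontal axis) of the chromosome 7 genes in each of 13 gene lists (number of genes in brackets) for the 4 large DLD1 clones. In every list but that of receptors and RAS-RAF signalling, the symbols of large clones 2 and 4 lie to the left of both others.

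In the list of receptors and signalling genes 11 of 15 were below 0, with a median of -0.18, and 3 had both clones lowest. Its median depended on the members: without LFNG, CAV1 and CAV2, 10 of 12 were below 0, with a median of -0.35. EGFR, the epidermal growth factor receptor, was at 7.16, 6.24 and 16.5 FPKM in 2N libraries, 5.60, 4.88 and 5.53 in small clones, 6.34 and 11.98 in large clones 1 and 3, and 5.32 and 7.64 in large clones 2 and 4. The 2N clones differed from each other more than the large clones did. MET, the receptor for hepatocyte growth factor, was at 23.1, 21.2 and 29.1 FPKM in 2N libraries, 24.99, 15.3 and 23.1 in small clones, 12.9 and 22.1 in large clones 1 and 3, and 8.54 and 17.4 in large clones 2 and 4, with overlap. MACC1 (ENSG00000183742, chromosome 7, 20134655 to 20217404), which is not in this list, is a colon cancer gene named for its link to metastasis and known to act on MET. It did separate: 10.3, 10.2 and 12.7 FPKM in 2N libraries, 14.0, 12.6 and 10.1 in small clones, 13.5 and 12.02 in large clones 1 and 3, and 7.15 and 7.16 in large clones 2 and 4.

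RHEB, the GTPase that switches on mTOR complex 1, had a ratio of 0.703, with both clones below all others. AHR, the receptor for dioxin-like compounds, was at 9.69, 7.36 and 11.1 FPKM in 2N libraries, 5.82, 6.77 and 4.85 in small clones, 6.58 and 6.88 in large clones 1 and 3, and 13.9 and 5.02 in large clones 2 and 4. Large clone 2 was the highest library and large clone 4 the second lowest, so the 2 clones that shared the low chromosome lay far apart here. BRAF, a kinase of the RAS pathway, had 1.01 to 2.00 FPKM in the DLD1 libraries and did not reach the level needed for the set.

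The 10 genes with the lowest differences fell into separable and overlapping kinds. HOXA6, UPP1, MACC1, NUP205, the transcription factor CREB3L2 and the zinc finger gene ZNF655 had large clones 2 and 4 below all other libraries. TMEM139, a membrane protein, had the lowest difference, at -1.15, but its values in large clones 2 and 4, 0.640 and 2.83 FPKM, spanned those of most libraries. Its lowest library was large clone 2, and its highest were large clones 1 and 3, at 5.10 and 4.18 FPKM. CPVL, a carboxypeptidase, rested on large clone 1 at 7.89 FPKM, above every other library. EPHB6, an ephrin receptor without kinase activity, was lowest in small clone 3, at 1.86 FPKM. Among the 10 highest, MDFIC was at 2.50 and 2.48 FPKM against 1.83 and 1.85, with 2N clone 2 higher still at 2.57.

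Complexes with subunits in the set and partners on other chromosomes were compared, with the complexes picked after results were known. PSMA2 and ARPC1B, also on chromosome 7, were below the FPKM limit and were not counted. The 8 subunits in the set lay between -0.69 and -0.27, with a median of -0.34 in large clones 2 and 4 minus large clones 1 and 3. The 38 partners that were compared, all on other chromosomes, lay between -0.33 and 0.35, with a median of -0.03, and 22 of 38 were below 0. Partners RFC4, at 0.35, MCM2, at 0.18, and ARPC4, at 0.05, lie on chromosome 3, whose median was -0.27 in large clone 1. PSMA4, at 0.01, lies on chromosome 15, whose median was 0.22 in large clone 4. The part of these chromosomes in the partner values was not tested. NUP205 at -0.69 stood beside inner-ring partners NUP93, NUP188, NUP155 and NUP35 at -0.05 to 0.05. CCT6A, of the chaperonin that folds actin and tubulin, was at -0.32, and its 7 partners lay between -0.06 and 0.11. MCM7 at -0.33 was below its 5 partners, of which MCM3 was lowest at -0.26. EZH2 at -0.29 differed from its PRC2 partners EED and SUZ12, both at 0.16. PSMC2, a proteasome ATPase, was at -0.34. The 10 proteasome partners that were compared had a median of -0.11, and PSMC1 reached -0.33. They were PSMA and PSMC subunits only, not the whole complex.

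The tests of the study's classes were fitted across all 14835 genes with limma on log2(FPKM + 1), 2-sided, with Benjamini-Hochberg adjustment. The large class pools clones that differed on this chromosome, as described above, and the contrasts with it use the clones that the choice used, so their counts are a description. For DLD1 large clones against the parental and 2N libraries (n = 4 and 3), limma called 0 of 422 chromosome 7 genes, against a background of 0% (0 of 14835). Voom of limma on recovered reads also called 0. At an unadjusted p under 0.05 there were 46 of 422 (10.9%), all 46 lower, against 2.68% of all genes tested. The median difference was -0.16 and 379 of 422 were negative, against a median of -0.01 over all genes.

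Large against small DLD1 clones (n = 4 and 3) gave 3 called genes of 422, all lower in large clones, which is 0.711% against a background of 0.762%. The median was -0.17 with 365 of 422 negative. An unadjusted p under 0.05 was present for 82 genes (19.4%), 77 of them lower, against 7.69% of all genes tested. RARRES2, the precursor of the chemoattractant chemerin, was at 5.02, 7.89 and 7.36 FPKM in small clones, 4.66 and 2.27 in large clones 1 and 3, 2.48 and 2.65 in large clones 2 and 4, and 5.26, 4.17 and 5.19 in 2N libraries. It fell by 0.97 ± 0.20 on the log2 scale (SE, limma adjusted p = 0.02), and its small and large values did not overlap. EVX1 was at 14.8, 3.40 and 8.13 FPKM in small clones, 1.50 and 3.61 in large clones 1 and 3, 1.00 and 4.72 in large clones 2 and 4, and 2.42, 2.80 and 2.72 in 2N libraries (log2 difference -1.34 ± 0.31, SE, limma adjusted p = 0.0457). Small clones 1 and 3 were its high samples, and small clone 2 overlapped the large ones.

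ZNF138, a zinc finger gene with close relatives, was at 4.61, 5.44 and 5.09 FPKM in small clones, 3.82 and 2.83 in large clones 1 and 3, 2.36 and 1.94 in large clones 2 and 4, and 3.59, 2.64 and 2.69 in 2N libraries (log2 difference -0.72 ± 0.16, SE, limma adjusted p = 0.0307). Of 15 alternatives each, ZNF138 and RARRES2 stayed past the threshold in 4 and EVX1 in 3. Without large clones 2 and 4 none was called, and with voom none was. Leaving out single clones gave 0 calls without small clone 3 or large clone 2 and 1 call without small clone 2 or large clone 4. The limma adjusted p over all alternatives ran from 0.00719 to 0.406 for ZNF138, from 0.00431 to 0.255 for RARRES2 and from 0.00176 to 0.34 for EVX1.

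Small DLD1 clones, which the choice of clones did not use, stayed with the 2N libraries on this chromosome. Between small clones and 2N libraries the median difference was 0.01, 197 of 422 were negative, and 21 genes (4.98%) had an unadjusted p under 0.05, 9 of them lower, against 6.86% of all genes tested. Limma called 0 of 422 genes between them (n = 3 each), against a background of 0.33%, and voom called 0. These counts do not show that a shift is lacking, since 0 were also called for large clones, whose median was -0.16. Without small clone 2, 2 genes were called.

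The same 422 genes were then read in HCT116 and CAL51, whose clones had no part in the choice. No library of either line moved as large clones 2 and 4 had: medians relative to the line's 2N libraries lay between -0.04 and 0.03 in all 16. The mean large minus small difference of the clone medians was 0.006 over both lines (exact permutation test within lines, 2-sided, p = 0.675 over 80 arrangements, smallest possible p 0.0125).

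In HCT116 (n = 3 and 3) limma called 9 of 422 genes between the size classes, 8 higher and 1 lower in large clones. That is 2.13%, against a background of 1.52%. At an unadjusted p under 0.05 the set had 17.1% and all genes 17.7%. Both shares lie near those of all genes, so they are no result about the set. CAV1 was at 14.5, 33.7 and 47.5 FPKM in small clones and 119, 122 and 185 in large clones, and rose by 2.24 ± 0.34 on the log2 scale (SE, limma adjusted p = 0.00173). The 2N libraries, at 91.9, 137 and 93.0 FPKM, lay nearer the large clones. MACC1, low in DLD1 large clones 2 and 4, rose in HCT116 large clones from 1.06, 3.93 and 1.12 to 5.62, 3.69 and 6.06 FPKM (log2 difference 1.12 ± 0.26, SE, limma adjusted p = 0.0386), with small clone 2 above large clone 2. SBDS rose from 16.4, 26.7 and 20.3 to 34.0, 33.7 and 38.9 FPKM (0.75 ± 0.17, SE, limma adjusted p = 0.0311), without overlap. POT1, which caps telomeres, fell from 4.58, 3.05 and 3.55 to 2.02, 2.56 and 2.02 FPKM (-0.56 ± 0.12, SE, limma adjusted p = 0.0197). The count of 9 depended on the clones: leaving out small clone 1 gave 1, large clone 1 gave 3, large clone 2 gave 46 and large clone 3 gave 2, and CAV1 was the one gene called in each of the 6 fits that left out a clone. With HCT116 fitted alone, 0 were called. Of 12 alternatives each, CAV1 stayed past the threshold in 11, SBDS and POT1 in 6 and MACC1 in 4.

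In CAL51, 3 large clones were set against 1 small clone, assumed to vary like the others, and limma called 6 of 422 genes, 2 higher and 4 lower, which is 1.42% against a background of 2.14%. At an unadjusted p under 0.05 the set had 9.95% and all genes 14.1%. BZW2, a regulator of translation start, stood at 67.7 FPKM in the single small clone, at 27.2, 25.1 and 25.1 in large clones, and fell by 1.36 ± 0.26 (SE, limma adjusted p = 0.00701). TTYH3, a membrane protein of the tweety family, rose from 27.8 to 84.7, 79.6 and 77.2 FPKM (log2 difference 1.50 ± 0.31, SE, limma adjusted p = 0.0106). AGR2, which folds mucins in the endoplasmic reticulum, fell from 69.2 to 15.3, 4.18 and 8.95 FPKM (-2.90 ± 0.67, SE, limma adjusted p = 0.0218), but the 2N clones alone spanned 9.52 to 77.6 FPKM. Without large clone 3 the count was 12. In the CAL51 parental library and 2N clones 1 and 2, BZW2 was at 31.8, 44.7 and 27.0 FPKM, and TTYH3 at 54.3, 31.7 and 63.4. In DLD1 large clones 2 and 4, AGR2 was at 67.9 and 27.6 FPKM, the highest and the lowest of the 10 libraries. Here too the 2 DLD1 clones did not move together.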

How the data were processed

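Gene FPKM in 26 poly-A libraries was used as the authors deposited it. The submitters' processing notes name fastp, HISAT2 (version 2.0.5), featureCounts (version 1.5.0-p3) and the build GRCh38. Gene positions are the table's own. FPKM multiplied by gene length and a scaling number per library gave whole reads (within 0.01 for 100% of values), from which depth was taken. The 422 genes and all lists were chosen with earlier results of these data known.

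For 14835 genes (3 or more libraries with FPKM of at least 1), log2(FPKM + 1) was fitted in limma (version 3.58.1, R 4.3.3) with 9 means (each line's 2N libraries with the parental one, small clones and large clones), an intensity trend and moderated variances (17 residual and 3.79 prior degrees of freedom), and a threshold of 0.05 adjusted over all genes. Replicates are clones, with each parental culture counted among its line's 2N libraries, so p values measure the spread between these libraries. Descriptions used Python version 3.11.15. The procedure was tested on simulated data.

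Named genes were the 10 with the highest mean FPKM, the 10 lowest and 10 highest by large clones 2 and 4 minus 1 and 3, called genes (up to 10 per direction in DLD1, 5 elsewhere), up to 3 per list by mean FPKM, and EGFR, MET, BRAF, CDK6, EZH2, MCM7, SUN1, CAV1 and ACTB; the genes next to the FPKM limit, PSMC2 and complex partners were named after their values were seen. Alternatives changed the pseudocount, filter, centring, reference libraries, scaling, model and clones included.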

Additional observations from a re-analysis of the deposited data

Results flagged for a closer look

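Of 72 sets of values over the 4 DLD1 large clones that were examined for a clone far from the others, 1 stood out, where chance alone gives about 1 in 20. SUN1 in the DLD1 large clones was at 11.5 FPKM in large clone 3 and at 9.66 to 9.95 in large clones 1, 2 and 4. The gap from large clone 3 to its nearest neighbour was 0.833 of the range on the log2 scale, just above Dixon's critical value of 0.829 for 4 samples. The small and 2N libraries, from 8.64 to 11.5 FPKM, covered the same levels.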

How the results depend on the processing

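The medians of large clones 2 and 4 stayed below 0 under every alternative tried. Without the FPKM minimum the median of large clone 2 shrank to -0.13 and that of large clone 4 to -0.13. Small clone medians, all near 0, moved beyond their replicate spread as follows: small clone 1 to 0.000927 without the minimum and, in sets of 140 or 141 genes by mean FPKM (added after seeing the data), to 0.045 in the lowest and 0.0075 in the middle set; small clone 2 to 0.027 in the middle set; small clone 3 to 0.017 without centring, 0.011 in the lowest and -0.021 in the highest set. The 3 calls of DLD1 large against small clones became 0 with a pseudocount of 0.1, 12 means, the line fitted alone, voom, the replicate block, or without large clones 2 and 4; leaving out single clones gave 0 to 3. Small against 2N libraries gave 0 to 2. HCT116 gave 5 calls with a pseudocount of 0.1, 5 without a filter, 1 with 12 means, 0 alone, 4 with the replicate block and 1 to 46 with single clones left out. CAL51 gave 3 with 12 means, 0 alone, 2 with the replicate block and 4 to 12 with clones left out. The difference of medians in the other lines turned from 0.006 to -0.000446 with genes chosen in each line, and ran from -0.000371 (without CAL51 large clone 3) to 0.013 with single clones left out. Clone numbers are shared across classes. Same-numbered clones had correlations of their deviations from the class means of -0.0558 to 0.0852 in DLD1 (7 pairs), 0.0284 to 0.197 in HCT116 (7 pairs, 4 of them over 0.1) and 0.180 and 0.205 in CAL51 (2 pairs). They were not all over 0.1 in DLD1 or HCT116, and CAL51 had too few pairs, so the numbers were not taken as a pairing. As a hint from the data, each HCT116 small clone correlated best with the large clone of its own number. With the replicate block the limma adjusted p was 0.0900 for MACC1, 0.0521 for SBDS and POT1, 0.133 for TTYH3 and 0.104 for AGR2. The causes were not tested. The planned edgeR quasi-likelihood fit was not run. Large clones 2 and 4 have the fewest reads, and genes near 2 FPKM are the least precise.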
